A study of Mus musculus with 15 samples.

Results

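The enzymes that make cholesterol and fatty acids, together with the proteins that control them, were followed through 34 listed genes of the SREBP pathway in macrophages cultured from mouse bone marrow. The genes were taken from a fixed list, and each was read through 1 probe set, the brightest on average over 15 arrays of those annotated to it and to no other gene. The list holds 18 genes of the sterol arm, 10 of the fatty acid arm and 6 control genes. A probe set was found for 33 of the 34, all but Acat2, and all 33 passed the filter on low values, whereas 13703 of all 18193 genes represented on the arrays did.

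Total RNA from 5 groups of 3 samples was read on single-colour arrays, 1 array a sample. All cells had been cultured from bone marrow for 7 days with M-CSF, a growth factor for macrophages. M0 cells received nothing further. M1 cells received E. coli lipopolysaccharide (LPS) and interferon-gamma, and M2 cells were given the cytokines IL-4 and IL-13. Another group was M2 cells with nutlin-3a, which activates p53 by keeping MDM2 off it, and the last was M2 cells with 10058F4, a MYC inhibitor that blocks the pairing of MYC with MAX. The strain, genotype and age of the mice, the doses and times, and any solvent given to the M2 cells without an agent are not stated in the labels. Replicates are called biological there, but whether they were separate mice or cultures is not said, so the p-values reflect the spread among these samples alone, which may be technical. Values are log2 expression after RMA, a difference of 1 is 2-fold, and a gene was called higher or lower at an adjusted p under 0.05 in limma.

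SREBPs are transcription factors held in the membrane of the endoplasmic reticulum by SCAP, their escort protein, and INSIG, which keeps SCAP there while sterols are plentiful. When sterols fall, SCAP carries the SREBP to the Golgi, where the site 1 and site 2 proteases release its active part. SREBP-2, from Srebf2, mainly drives the genes of cholesterol synthesis, and SREBP-1, from Srebf1, mainly those of fatty acid synthesis. Macrophages use both pathways to build membranes.

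The promoters of 4 members are shown because these were the members with the largest differences between M1 and M2 cells among those in the RefSeq promoter table, 3 from the sterol arm and the fatty acid synthase gene Fasn. Each is the 250 bases before the start site in build GRCm38.p6, 5′ to 3′ on the gene's strand, with capitals marking matches to 3 motifs on either strand: the CCAAT box (CCAAT or its reverse complement ATTGG), bound by NF-Y, a usual partner of SREBP; the E-box CACGTG; and TCACNCCAC, an SRE-like motif, which resembles the sterol regulatory element that SREBP binds. Idi1 makes the isoprenoid building block isomer, Cyp51 demethylates lanosterol, and Hmgcs1 makes the precursor of mevalonate.
Idi1, chr13:8885356-8885605, plus strand: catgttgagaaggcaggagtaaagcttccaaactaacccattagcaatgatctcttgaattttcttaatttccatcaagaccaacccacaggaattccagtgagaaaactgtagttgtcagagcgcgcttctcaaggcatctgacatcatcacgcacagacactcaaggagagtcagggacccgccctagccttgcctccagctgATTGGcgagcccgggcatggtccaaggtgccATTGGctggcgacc
Cyp51, chr5:4104698-4104947, minus strand: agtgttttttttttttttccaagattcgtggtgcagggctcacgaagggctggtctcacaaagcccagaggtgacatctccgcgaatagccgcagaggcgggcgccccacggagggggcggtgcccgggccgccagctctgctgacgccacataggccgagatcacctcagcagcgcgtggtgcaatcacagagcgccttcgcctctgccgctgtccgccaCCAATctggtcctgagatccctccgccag
Hmgcs1, chr13:119690101-119690350, plus strand: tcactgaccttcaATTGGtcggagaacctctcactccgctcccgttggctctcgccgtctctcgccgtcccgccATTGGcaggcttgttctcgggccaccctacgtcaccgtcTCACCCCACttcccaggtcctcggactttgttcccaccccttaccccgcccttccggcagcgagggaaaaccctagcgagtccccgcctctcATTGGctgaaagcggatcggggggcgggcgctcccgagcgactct
Fasn, chr11:120824548-120824797, minus strand: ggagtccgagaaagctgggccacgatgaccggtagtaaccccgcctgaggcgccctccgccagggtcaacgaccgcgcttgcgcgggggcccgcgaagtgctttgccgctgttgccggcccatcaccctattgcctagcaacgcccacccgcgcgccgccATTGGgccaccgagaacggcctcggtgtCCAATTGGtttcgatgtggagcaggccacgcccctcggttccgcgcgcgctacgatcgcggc
Hmgcs1 held the SRE-like match TCACCCCAC from 137 to 129 bases before its start, beside 3 CCAAT boxes. Fasn also held 3 CCAAT boxes, with 2 of them overlapping in the run CCAATTGG, Idi1 held 2 and Cyp51 held 1. None of the 4 held the E-box.

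The RefSeq table held 27 of the 34 members, without Sqle, Fdps, Fdft1, Scd1, Scd2, Fads1 and Stard4. A CCAAT box lay in the 250 bases of 14 of 15 sterol genes (93.3%), the exception being Acat2, against 37.5% of the 27025 genes in the table. The share was 3 of 7 fatty acid genes (42.9%), which were Fasn, Elovl5 and Me1, and 4 of 5 control genes (80.0%), the exception being Scap. The E-box was found in 3 of 15 sterol genes (20.0%), 1 of 7 fatty acid genes (14.3%) and 2 of 5 control genes (40%), against 6.86% of all genes in the table. By promoter these shares were 16.7%, 12.5% and 20.0%, against 6.02%. Among the 27 members the SRE-like letters were found in Hmgcs1 (6.67% of sterol genes), against 1.22% of all genes. These matches describe the letters in these windows and were not tested for binding.

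Arrays of a group correlated across probe sets with r of 0.989 to 0.997. All 8 macrophage markers lay above the limit for low values in each group, the 4 M1 markers summed to 16400 to 18600 on the linear scale in M1 cells against 81.3 to 112 elsewhere, and the 4 M2 markers to 9680 to 13500 in the 3 M2 groups against 1650 to 2090 in M0 cells. The 4 p53 target genes summed to 12000 to 12800 with nutlin-3a and 3700 to 3920 in M2 cells without it. The macrophage markers summed to 48100 to 49300 in M1 cells and 56100 to 57700 in M0 cells, with 3 called lower and 3 higher. Dendritic cell markers summed to 162 to 248 in M1 cells and 96.4 to 109 in M0 cells, T and NK cell markers to 119 to 127 and 85.5 to 97 (3 of 3 tested called higher), and B cell markers to 81.9 to 94.1 and 66.6 to 74.5. Of the dendritic cell markers Xcr1 (2.50) and Ccr7 (1.59) were called higher, and Flt3 and Zbtb46 were not called. In the groups other than M1, Xcr1 averaged 3.45 to 3.82 and Ccr7 3.82 to 4.09, below the limit for low values. The sizes of these 2 rises are thus not exact, and the calls rest on the M1 arrays. The tested T, NK and B cell markers averaged 4.28 to 5.49 in M0 and M1 cells, against a limit for low values of 4.34 to 4.52. Neutrophil markers summed to 300 to 348 in M2 cells and 433 to 467 in M0 cells, with S100a8 called lower (-0.69) and 4 not called. Of 4 adipocyte markers 3 had a probe set and 1, Adipoq, was tested. Adipoq moved from 2.85 ± 0.11 in M0 to 5.48 ± 0.37 in M2 cells (SD, n = 3). Its M0 mean lay below the limit for low values, so the size is not exact. The part of these cells in the results was not tested, and in bulk RNA fewer cells of a type and less RNA per cell cannot be told apart.

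**Figure D1:**
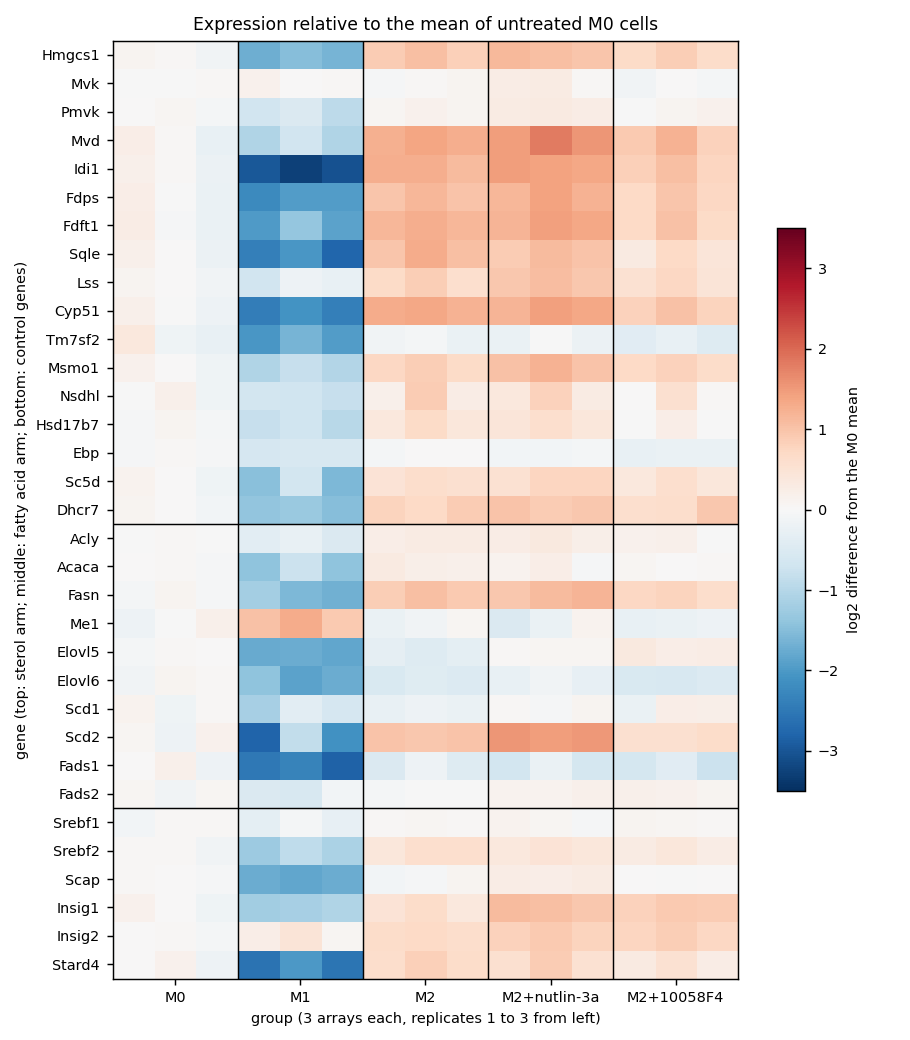
Each of the 33 genes (vertical axis) on each of 15 arrays (horizontal axis, 3 per group), coloured by its log2 difference from the gene's mean in M0 cells. M1 arrays are blue for nearly all genes except Me1, while M2 arrays are red over most of the upper block, the sterol arm, and mixed in the middle block, the fatty acid arm.

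Across the groups, both arms had low medians in M1 cells, and in M2 cells the sterol median lay above the M0 level and the fatty acid median near it. The median of the 17 sterol genes, each set against its own M0 mean, was -1.23 ± 0.36 on M1 arrays, 0.76 ± 0.11 on M2 arrays, 0.97 ± 0.06 with nutlin-3a and 0.56 ± 0.12 with 10058F4 (SD over 3 arrays). On each M2 array this sterol median lay between 0.66 and 0.88, above the 3 M0 arrays at -0.15 to 0.12. The same median of the 10 fatty acid genes was -1.22 ± 0.38 in M1 cells and close to the M0 level in the others, at -0.06 ± 0.09, 0.09 ± 0.01 and 0.11 ± 0.05 in the same order. No p is given for these medians because the genes were chosen with results of these data known.

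**Figure D2:**
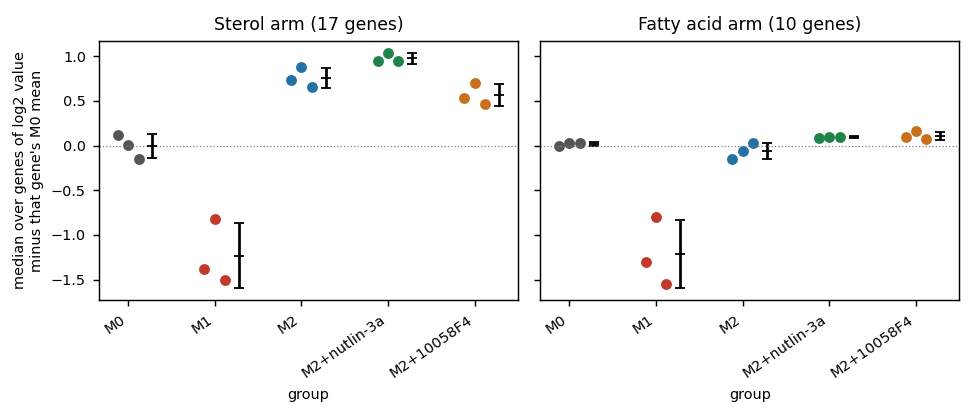
Median over genes of the log2 value minus that gene's M0 mean (vertical axis), for the sterol arm (left) and the fatty acid arm (right) in 5 groups. Points are arrays, and the bar beside each group is the mean ± SD of its 3 arrays; the sterol median is between 0.66 and 0.88 on the M2 arrays, and the fatty acid median between -0.15 and 0.03.

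The group means of 13 of 17 sterol genes, 3 of 10 fatty acid genes (Acly, Fasn and Scd2) and 0 of 6 control genes followed one order, seen in 1.66% of all tested genes: lowest in M1, then M0, 10058F4, M2 and nutlin-3a cells. This order was picked after the means were seen. Acly followed it on its chosen probe set but not on another that was nearly as bright. That one gave -0.02 in M2 against M0 and 0.14 with 10058F4 against M2. A dimmer probe set of Acly gave 0.27 and -0.24, as the order has it. The M1 mean was the lowest of the 5 groups for 16 of 17 sterol genes, 9 of 10 fatty acid genes and 5 of 6 control genes, against 40.9% of all tested genes. The mean with nutlin-3a was the highest for 14 of 17 sterol genes, in Hsd17b7 level with the M2 mean at 7.48 to 2 decimals, against 13.8% of all tested genes, and for 4 of 10 fatty acid genes. With nutlin-3a, dimmer probe sets of Hsd17b7 (-0.17), Cyp51 (-0.13), Lss (-0.1) and Sc5d (-0.04) gave log2 values below M2. Further ones of these genes gave 0.01, 0.06, 0.58 and 0.18. The mean with 10058F4 was below the M2 mean for 17 of 17 sterol genes, against 50.1% of all tested genes, and for 7 of 10 fatty acid genes. For the sterol genes this held on the chosen probe sets. Dimmer probe sets of Idi1 (0.19), Fdft1 (0.24 and 0.22) and Sc5d (0.09) gave log2 values with 10058F4 above M2. A further one gave -0.21 for Fdft1 and -0.57 for Sc5d. For 14 of 17 sterol genes the 10058F4 mean lay between the M0 and M2 means, above M0, against 18.2% of all tested genes. Many of these orders rest on differences that did not pass the test for the single gene.

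Sterol genes also moved together within groups. Replicate 2 was the highest array for 14 of 17 sterol genes in M1 cells, 13 in M2 cells, 13 with nutlin-3a and 14 with 10058F4. In M0 cells replicate 1 was the highest for 12 of 17 and replicate 3 the lowest for 16 of 17. The genes of the arm are thus not independent measurements of a group.

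M1 cells had less mRNA for nearly the whole of both arms than M0 cells. The largest falls were 8.64-fold for Idi1 and 5.91-fold for Fads1, the delta-5 fatty acid desaturase. A second, dimmer probe set of Fads1 gave a log2 difference of -0.06. Of 17 sterol genes 16 were lower, 9 of them by at least 2-fold, and 9 of 10 fatty acid genes were lower, 6 by at least 2-fold. Over all tested genes limma called 39.1% lower and 33.6% higher in this comparison, and 1737 of 13703 were lower by at least 2-fold. The median log2 difference was -1.22 in the sterol arm and -1.33 in the fatty acid arm, against 0 over all tested genes. With the mean of a gene's probe sets the sterol median was -0.76.

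Idi1 expression was 8.77, 8.63 and 8.38 in M0 cells and 5.61, 5.32 and 5.53 in M1 cells, replicates 1 to 3. The groups were far apart, with a log2 difference of -3.11 ± 0.11 (SE, limma adjusted p = 7.3e-12). Sqle, which makes squalene epoxide, read 8.48, 8.30 and 8.08 in M0 cells and 5.91, 6.25 and 5.52 in M1 cells. Its lowest M0 array stood well above its highest M1 array, and the difference was -2.40 ± 0.16 (SE, limma adjusted p = 7.6e-09). Cyp51 read 7.90, 7.71 and 7.55 in M0 cells and 5.31, 5.63 and 5.32 in M1 cells, a difference of -2.30 ± 0.11 (SE, limma adjusted p = 2e-10) with no overlap. The other sterol genes that fell ranged from Fdps, the farnesyl diphosphate synthase gene, at -2.04 to Lss, the lanosterol synthase gene, at -0.37, which was not called without M1 replicate 1 (adjusted p = 0.069; 3.6e-07 to 0.74 over 17 alternatives). Mvk, the mevalonate kinase gene, was the sterol gene not called, with 7.01, 7.01 and 7.07 in M0 cells against 7.19, 7.04 and 7.06 in M1 cells. Its difference was 0.06, with a 95% interval of -0.10 to 0.22.

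In the fatty acid arm, Fads1 read 8.98, 9.13 and 8.77 in M0 cells and 6.45, 6.61 and 6.13 in M1 cells. The groups did not overlap, and the difference was -2.56 ± 0.15 (SE, limma adjusted p = 1.6e-09). Scd2, a stearoyl-CoA desaturase gene, read 8.49, 8.24 and 8.57 in M0 cells and 5.63, 7.58 and 6.31 in M1 cells. All M1 arrays were lower than the M0 arrays but spread widely (SD 0.99), and the difference was -1.93 ± 0.32 (SE, limma adjusted p = 8.3e-05). Elovl5, which elongates polyunsaturated fatty acids, read 10.25, 10.34 and 10.33 in M0 cells and 8.54, 8.56 and 8.48 in M1 cells, a difference of -1.78 ± 0.06 (SE, limma adjusted p = 4.8e-12). Me1, the malic enzyme gene that supplies NADPH, went the other way. It read 6.08, 6.25 and 6.44 in M0 cells and 7.29, 7.55 and 7.18 in M1 cells, and rose by 1.08 ± 0.14 (SE, limma adjusted p = 9.9e-06) without overlap. Elovl6 and Scd1 averaged 3.76 and 4.28 in M1 cells, below the limit for low values of 4.34 to 4.52 over the arrays, and Fads2 averaged 4.53, so the sizes of these 3 falls are not exact.

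Of the 6 control genes 5 fell and 1 rose in M1 cells. Stard4, a cytosolic sterol carrier, read 8.21, 8.36 and 8.02 in M0 cells and 5.61, 6.18 and 5.65 in M1 cells, and fell by 2.38 ± 0.15 (SE, limma adjusted p = 3.1e-09). Scap read 8.70, 8.69 and 8.62 in M0 cells and 6.92, 6.86 and 6.94 in M1 cells, and fell by 1.76 ± 0.06 (SE, limma adjusted p = 5e-12). Insig1 read 8.88, 8.74 and 8.58 against 7.53, 7.57 and 7.69, and fell by 1.14 ± 0.09 (SE, limma adjusted p = 3.6e-08). None of these genes had overlapping groups. Srebf2 read 7.41, 7.41 and 7.25 against 6.10, 6.46 and 6.24, a fall of 1.09 ± 0.09 (SE, limma adjusted p = 6.3e-08), again without overlap. Srebf1 read 8.45, 8.58 and 8.58 against 8.20, 8.47 and 8.24, and its arrays overlapped; the difference of -0.23 ± 0.07 (SE, limma adjusted p = 0.012) was not called without M1 replicate 1 (adjusted p = 0.056; 0.00051 to 0.75 over 16 alternatives) and turned to 0.09 when arrays were centred on the median of the tested genes. Insig2 read 8.48, 8.50 and 8.39 against 8.69, 8.91 and 8.54, a rise of 0.25 ± 0.08 (SE, limma adjusted p = 0.015) that was lost with M0 replicate 3 left out (adjusted p = 0.056) and with M1 replicate 2 left out (0.065; 5.1e-06 to 0.19 over 17 alternatives).

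The scaling and the RNA bear on M1 results in measured ways. Centring arrays on the median of the tested genes moved that median by 0.32 in M1 against M0 and turned the calls over all genes from 4601 higher and 5362 lower to 7619 higher and 3505 lower. A repeated quantile normalization gave 5186 higher and 4485 lower. Under the centring 14 sterol genes and 7 fatty acid genes were still lower, and Mvk was called higher by 0.39 (adjusted p = 0.00059; 0.00059 to 0.94 over 17 alternatives). The log2 signal of beta-actin's 3′ probe set minus that of its 5′ one was 0.18 ± 0.04 in M1 cells and 0.35 ± 0.05 in M0 cells (SD, n = 3), without overlap (exact two-sided permutation p = 0.1, the smallest that 3 arrays against 3 allow). The same measure for Gapdh moved the other way, -0.16 ± 0.03 in M1 cells and -0.27 ± 0.02 in M0 cells, also without overlap (SD, n = 3, exact two-sided permutation p = 0.1). The part of these differences in the results was not tested.

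In M2 cells, which had received IL-4 and IL-13, most of the sterol arm rose. Against M0 cells 12 of 17 sterol genes rose, 6 of them by at least 2-fold, led by Mvd, the mevalonate decarboxylase gene, at 2.45-fold, Cyp51 at 2.44-fold and Idi1 at 2.32-fold. Over all tested genes 12.7% were called higher and 18.4% lower by limma, and 200 of 13703 were higher by at least 2-fold. In the fatty acid arm 3 of 10 genes rose and 2 fell. The median log2 difference was 0.74 over the sterol genes, -0.06 over the fatty acid genes and 0 over all tested genes; the difference between the arms was not tested. The fatty acid median turned to 0.25 with the low-value filter at the 60th percentile and to 0.06 with the mean of a gene's probe sets, and the sterol median was 0.50 with that mean.

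Mvd read 7.04, 6.83 and 6.54 in M0 cells and 8.04, 8.17 and 8.07 in M2 cells, and rose by 1.29 ± 0.14 (SE, limma adjusted p = 1.2e-05). Cyp51 read 9.02, 9.07 and 8.93 in M2 cells and rose by 1.29 ± 0.11 (SE, limma adjusted p = 9e-07). Idi1 read 9.87, 9.86 and 9.70 in M2 cells and rose by 1.22 ± 0.11 (SE, limma adjusted p = 1.3e-06). In each of these 3 genes all M2 arrays stood above all M0 arrays. The other risen sterol genes ranged from Fdft1, the squalene synthase gene, at 1.20 down to Hsd17b7 at 0.48, with Fdps at 1.05, Hmgcs1 at 0.93 and Dhcr7, which completes cholesterol, at 0.79. The genes not called were Mvk (0.03), Pmvk (0.11), Tm7sf2 (-0.15), Ebp (-0.01) and Nsdhl (0.44), the last of which was called with the replicate block (adjusted p = 0.0098; 0.0098 to 0.39 over 17 alternatives). Sc5d, at 0.55, lost its call without any of 5 arrays, M0 replicates 2 and 3 and the 3 M2 replicates (adjusted p from 0.056 to 0.1).

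Among fatty acid genes, Scd2 read 9.44, 9.36 and 9.44 in M2 cells, above all 3 M0 arrays. It rose by 0.98 ± 0.32 (SE, limma adjusted p = 0.03), and the call was lost when any of 5 arrays was left out, all but M0 replicate 3 (adjusted p from 0.06 to 0.096). Fasn read 7.13, 7.28 and 7.16 in M0 cells and 8.05, 8.24 and 8.10 in M2 cells, and rose by 0.94 ± 0.11 (SE, limma adjusted p = 1.9e-05) without overlap. Acly, which makes cytosolic acetyl-CoA from citrate, rose by 0.25 ± 0.07 on its chosen probe set (SE, limma adjusted p = 0.016; 0.05 without M2 replicate 2). Another probe set of Acly, nearly as bright (mean of 10.05 against 10.07), gave -0.02, and a dimmer one gave 0.27. The rise of Acly thus depends on the probe set. Elovl6, which elongates saturated fatty acids, read 5.30, 5.53 and 5.46 in M0 cells and 4.89, 5.01 and 4.94 in M2 cells. It fell by 0.48 ± 0.10 (SE, limma adjusted p = 0.0025). Elovl5 read 9.99, 9.87 and 9.98 in M2 cells, below all M0 arrays, and fell by 0.37 ± 0.06 (SE, limma adjusted p = 3e-04). Fads1, at -0.38, was not called (limma adjusted p = 0.069) and was called lower with the replicate block (adjusted p = 0.0016; 0.0016 to 0.26 over 17 alternatives).

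**Figure D3:**
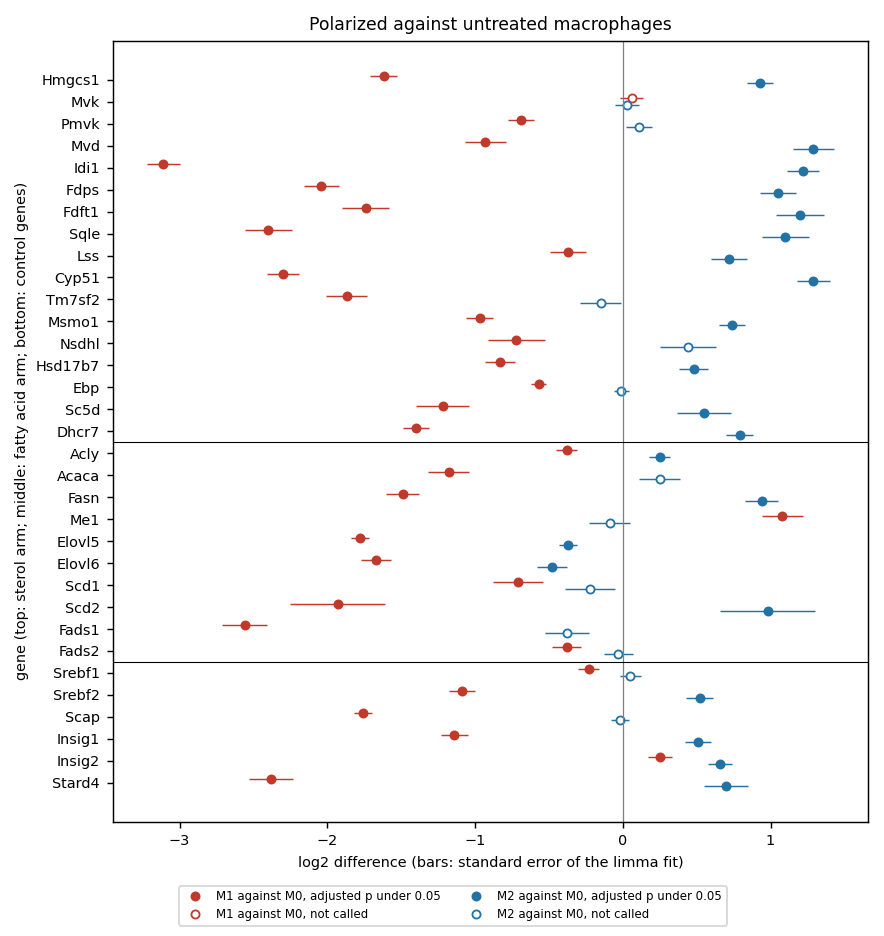
Log2 difference from M0 cells (horizontal axis) of each of 33 genes (vertical axis) in M1 cells (red) and M2 cells (blue), with the standard error of the limma fit as bars and open points for differences not called. In the sterol arm the called red points run from -3.11 to -0.37 and the called blue points from 0.48 to 1.29, while in the fatty acid arm blue points lie on both sides of 0.

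Of the control genes 4 rose in M2 cells. Stard4 read 8.82, 9.03 and 8.83 in M2 cells and rose by 0.70 ± 0.15 (SE, limma adjusted p = 0.0025). Insig2 read 9.09, 9.17 and 9.07 and rose by 0.66 ± 0.08 (SE, limma adjusted p = 4.3e-05). Srebf2 read 7.77, 7.94 and 7.94 and rose by 0.52 ± 0.09 (SE, limma adjusted p = 0.00049). In all of these, and in Insig1, the M2 arrays lay above the M0 arrays. Insig1 read 9.22, 9.39 and 9.11 and rose by 0.51 ± 0.09 (SE, limma adjusted p = 0.00058). Srebf2's other probe set, slightly dimmer (mean of 7.2 against 7.39), gave 0.15. The size of the Srebf2 rise thus depends on the probe set. Srebf1 read 8.58, 8.60 and 8.59, a difference of 0.05 with a limma adjusted p of 0.63, and Scap read 8.58, 8.62 and 8.76, a difference of -0.02 with a limma adjusted p of 0.85. Centring on the tested genes changed the calls over all genes in this comparison from 1735 higher and 2518 lower to 2801 and 1791; 13 sterol genes were then higher. A repeated quantile normalization gave 2091 and 1976.

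Set directly against each other, M1 and M2 cells differed in nearly every member, with 16 of 17 sterol genes lower in M1 cells, 14 of them by at least 2-fold. Over all tested genes 36.5% were called lower and 28.1% higher. These shares count calls of any size, so they are a background for the calls and not for the 2-fold counts. In the fatty acid arm 9 of 10 genes were lower, 6 by at least 2-fold. The M1 and M2 comparisons with M0 share the M0 arrays, whereas this one does not use them. The median log2 difference was -1.77 in the sterol arm and -1.30 in the fatty acid arm, and the latter was -0.59 with the mean of a gene's probe sets.

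Idi1 was 20.1-fold lower in M1 than in M2 cells, a difference of -4.33 ± 0.11 (SE, limma adjusted p = 2.4e-13). Cyp51 was 12-fold lower, at -3.59 ± 0.11 (SE, limma adjusted p = 1.8e-12), and Sqle, which read 9.27, 9.58 and 9.33 in M2 cells, 11.3-fold lower, at -3.5 ± 0.16 (SE, limma adjusted p = 1.2e-10). For all 3 genes the M1 arrays lay more than 2 log2 units below every M2 array. Scd2 led the fatty acid arm at -2.91 ± 0.32 (SE, limma adjusted p = 1.4e-06), followed by Fasn, which read 5.99, 5.63 and 5.50 in M1 cells, at -2.42 ± 0.11 (SE, limma adjusted p = 1.1e-10). Fads1, which read 8.45, 8.79 and 8.50 in M2 cells, was lower, at -2.18 ± 0.15 (SE, limma adjusted p = 9e-09). Me1 read 6.02, 6.15 and 6.33 in M2 cells and was higher in M1 cells by 1.17 ± 0.14 (SE, limma adjusted p = 4.5e-06). All 6 control genes were lower in M1 than in M2 cells, from Stard4 at -3.08 through Scap at -1.75, Insig1 at -1.64, Srebf2 at -1.62 and Insig2 at -0.40 to Srebf1 at -0.29. Of these, the differences of Insig2 and Srebf1 were not called when arrays were centred on the tested genes, which turned 3855 higher and 5005 lower calls over all genes into 6896 and 3644 and moved their median by 0.24.

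Few members of either arm differed between M2 cells with and without nutlin-3a by the test. With nutlin-3a, Msmo1, the sterol methyl oxidase gene, was the sterol gene called higher, Elovl5 the fatty acid gene, and Insig1 and Scap the control genes. Over all tested genes 9.56% were called higher and 5.85% lower, so 1 of 17 and 1 of 10 are near or below that background. At an unadjusted limma p under 0.05 the higher genes were 3 of 17 and 2 of 10, against 16.7% of all tested genes. The median log2 difference was 0.13 in the sterol arm and 0.16 in the fatty acid arm, against 0.01 over all tested genes. The fatty acid median was 0.01 with the filter at the 60th percentile and 0.03 with the mean of probe sets. The arrays did not overlap, nutlin-3a above, for 6 sterol and 5 fatty acid genes, against 21.9% of all tested genes.

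Msmo1 read 10.52, 10.64 and 10.45 in M2 cells and 10.82, 11.01 and 10.79 with nutlin-3a. The groups did not overlap, and the difference was 0.34 ± 0.09 (SE, limma adjusted p = 0.025), not called without M2 replicate 1 (adjusted p = 0.078), M2 replicate 3 (0.093) or nutlin-3a replicate 2 (0.11; 0.0058 to 0.16 over 17 alternatives). Elovl5 read 10.34, 10.39 and 10.39 with nutlin-3a and rose by 0.43 ± 0.06 over M2 cells (SE, limma adjusted p = 0.00029); its difference from M0 cells was 0.06. Insig1 read 9.84, 9.78 and 9.69 and rose by 0.53 ± 0.09 (SE, limma adjusted p = 0.0012), and Scap read 8.93, 8.90 and 8.96 and rose by 0.28 ± 0.06 (SE, limma adjusted p = 0.006), each above all M2 arrays. A second, dimmer probe set of Scap gave -0.19, and the mean of both was not called (adjusted p = 0.73; 0.0012 to 0.73 over 17 alternatives). Scd2 read 9.97, 9.88 and 9.95, above all M2 arrays by a mean of 0.52, but was not called (limma adjusted p = 0.3). The spread shared by the 5 groups includes the M1 arrays of Scd2, and on the 6 compared arrays alone its adjusted p was 0.0015 (0.0015 to 0.43 over 17 alternatives). The other control genes were not called: Srebf1 (8.67, 8.60 and 8.51), Srebf2 (7.74, 7.84 and 7.76), Insig2 (9.27, 9.37 and 9.25) and Stard4 (8.75, 9.09 and 8.72). Their differences were 0.01, -0.10, 0.19 and -0.04. The beta-actin 3′ to 5′ difference was 0.45 ± 0.03 with nutlin-3a and 0.49 ± 0.02 with 10058F4, against 0.38 ± 0.03 in M2 cells (SD, n = 3; exact two-sided permutation p = 0.1 each, the smallest possible), while the Gapdh difference was -0.28 ± 0.01, -0.27 ± 0.01 and -0.28 ± 0.03 in the same order (exact two-sided permutation p = 1 and 0.6). The part of these differences in the results was not tested.

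With 10058F4, 5 of 17 sterol genes of M2 cells were lower, Sqle, Cyp51, Hsd17b7, Idi1 and Ebp, by 1.16-fold to 1.54-fold. Over all tested genes 10.2% were called lower and 10.6% higher. In the fatty acid arm Elovl5 rose, and among the control genes Insig1 rose. At an unadjusted limma p under 0.05, 7 of 17 sterol genes and 0 of 10 fatty acid genes were lower, against 16.2% of all tested genes. The median log2 difference was -0.22 in the sterol arm and -0.14 in the fatty acid arm, against 0 over all tested genes.

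Sqle read 8.61, 8.98 and 8.72 with 10058F4, below all M2 arrays, and fell by 0.62 ± 0.16 (SE, limma adjusted p = 0.014). Cyp51 read 8.54, 8.75 and 8.49 and fell by 0.42 ± 0.11 (SE, limma adjusted p = 0.015). Hsd17b7, which reduces a sterol ketone, read 7.38, 7.66 and 7.40 in M2 cells and 6.98, 7.24 and 6.99 with 10058F4, and fell by 0.41 ± 0.10 (SE, limma adjusted p = 0.0093). For these genes no array with the agent reached an M2 array. Idi1 read 9.43, 9.65 and 9.35 and fell by 0.33 ± 0.11 (SE, limma adjusted p = 0.041), and Ebp, the sterol isomerase gene, read 9.62, 9.69 and 9.71 against 9.44, 9.47 and 9.47 and fell by 0.21 ± 0.05 (SE, limma adjusted p = 0.011). A second, dimmer probe set of Idi1 went the other way, at 0.19. Leaving out M2 replicate 2 or 10058F4 replicate 1 left 2 of the 5 calls, with Sqle (adjusted p = 0.061 and 0.065), Cyp51 (0.054 and 0.061) and Idi1 (0.11 and 0.12) lost; over 17 alternatives the adjusted p of these 3 ran from 0.0016 to 0.065, 0.0023 to 0.067 and 0.011 to 0.73, the last with the mean of the probe sets of Idi1. The replicate block added Fdft1 (adjusted p = 0.047; 0.016 to 0.77 over 17 alternatives) and Stard4 (adjusted p = 0.0094; 0.0094 to 0.35 over 17 alternatives).

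Elovl5 read 10.64, 10.53 and 10.57 with 10058F4, the highest mean of the 5 groups, and rose by 0.64 ± 0.06 (SE, limma adjusted p = 4.1e-06). Insig1 read 9.56, 9.66 and 9.62 and rose by 0.37 ± 0.09 (SE, limma adjusted p = 0.0079). Both stood above every M2 array. Scd2 read 8.98, 9.0 and 9.07, below all M2 arrays by a mean of 0.40, without a call (limma adjusted p = 0.43), though on the 6 compared arrays alone the adjusted p was 0.0019 (0.0019 to 0.57 over 17 alternatives). The remaining control genes read 8.63, 8.62 and 8.59 for Srebf1, 7.64, 7.77 and 7.63 for Srebf2, 8.68, 8.66 and 8.67 for Scap, 9.21, 9.32 and 9.18 for Insig2 and 8.51, 8.74 and 8.47 for Stard4. None of them was called.

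**Figure D4:**
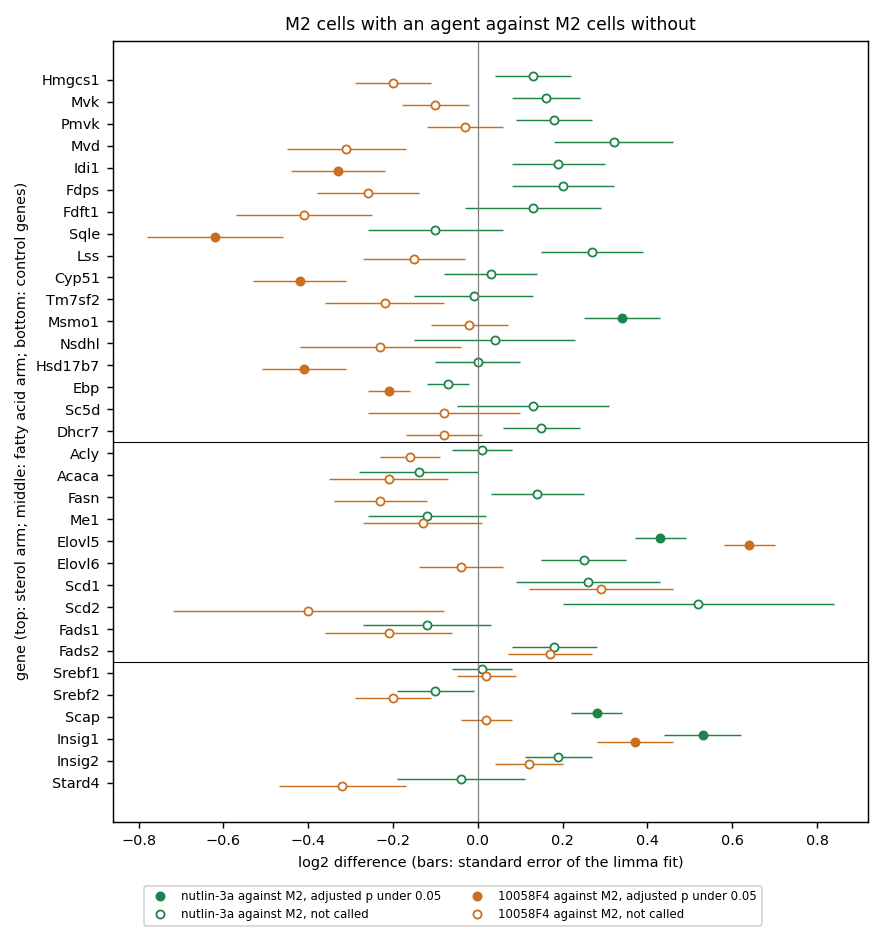
Log2 difference from M2 cells (horizontal axis) of 33 genes (vertical axis) with nutlin-3a (green) and with 10058F4 (orange), with the standard error of the limma fit as bars and open points for differences not called. All 17 sterol genes have their 10058F4 point below 0, and 14 have their nutlin-3a point above 0, Hsd17b7 by less than the plot can show, and Elovl5 is called higher with both agents, at 0.43 and 0.64.

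The agents' comparisons with M2 share the M2 arrays, so the agents were also compared directly. Of 17 sterol genes 7 were higher with nutlin-3a than with 10058F4, against 4.24% of all tested genes called higher and 2.72% lower. The median log2 difference was 0.36 in the sterol arm, 0.08 in the fatty acid arm and 0.01 over all tested genes, and 14 sterol genes had all nutlin-3a arrays above all 10058F4 arrays, against 19% of all tested genes. Mvd read 8.27, 8.61 and 8.34 with nutlin-3a and 7.71, 8.03 and 7.61 with 10058F4, and was higher by 0.63 ± 0.14 (SE, limma adjusted p = 0.016). Idi1 read 10.06, 10 and 9.94 with nutlin-3a and was higher by 0.52 ± 0.11 (SE, limma adjusted p = 0.008). Fdps read 9.14, 9.39 and 9.20 against 8.68, 8.96 and 8.72 and was higher by 0.46 ± 0.12 (SE, limma adjusted p = 0.033). In all 3 genes the groups did not overlap.

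The other 4 called sterol genes were Cyp51 at 0.45, Hsd17b7 at 0.42, Msmo1 at 0.36 and Hmgcs1 at 0.33. Of the 7 calls 1 was left without nutlin-3a replicate 2 or 10058F4 replicate 1, and 9 were made without 10058F4 replicate 2. The replicate block added Fdft1 (adjusted p = 0.027; 0.0052 to 0.2 over 17 alternatives), Sqle (0.022; 0.01 to 0.25), Lss (0.022; 0.0077 to 0.19) and Stard4 (0.039; 0.039 to 0.72). Elovl5 was lower with nutlin-3a by 0.21 ± 0.06 (SE, limma adjusted p = 0.049), a call that each left-out array and the replicate block ended (0.054 with the block; 0.013 to 0.2 over 17 alternatives). Scap was higher by 0.26 ± 0.06 (SE, limma adjusted p = 0.014), and was not called without nutlin-3a replicate 3 or any of the 10058F4 arrays. Scd2 was higher by 0.92 ± 0.32 with no overlap (SE, limma adjusted p = 0.11), and on the 6 compared arrays alone its adjusted p was 8.6e-05 (8.6e-05 to 0.24 over 17 alternatives). Centring on the tested genes turned 581 higher and 373 lower calls over all genes into 434 and 543, and for nutlin-3a against M2 cells 1310 and 802 into 926 and 1320. A repeated quantile normalization gave 486 and 470 between the agents and 1104 and 1041 for nutlin-3a against M2 cells, and centring on the array's median gave 1589 and 577 in the latter.

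Against M0 cells most sterol genes were also higher in both agent groups. With nutlin-3a 13 of 17 sterol genes were higher, the 12 called in M2 cells and Pmvk, with a median log2 difference of 0.99. Of the 13, 8 were higher by at least 2-fold. Over all tested genes 13.3% were called higher and 15.6% lower, at any size. The largest rises were those of Mvd (1.61), Idi1 (1.41) and Fdft1 (1.33), with SE of 0.14, 0.11 and 0.16 and limma adjusted p of 1.1e-06, 2.4e-07 and 1.7e-05. In the fatty acid arm Scd2 (1.5), Fasn (1.08) and Acly (0.26) were higher and Fads1, which read 8.33, 8.72 and 8.35, was lower, at -0.50 ± 0.15 (SE, limma adjusted p = 0.022). The fall of Fads1 was lost without M0 replicate 1, M0 replicate 2, nutlin-3a replicate 1 or nutlin-3a replicate 3. Of the control genes 5 were higher, led by Insig1 at 1.03 and Insig2 at 0.84. Srebf2 was among them at 0.42, but its other probe set gave 0.09. In the sterol arm the replicate block added Nsdhl as higher (adjusted p = 0.0055; 0.0055 to 0.27 over 17 alternatives).

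With 10058F4, 10 of 17 sterol genes were higher than in M0 cells, against 14% of all tested genes called higher and 19.1% lower, with a median log2 difference of 0.57. Of the 12 called in M2 cells, Hsd17b7 (0.07, limma adjusted p = 0.66) and Sc5d (0.46, limma adjusted p = 0.062) were not called here. Mvd (0.98), Idi1 (0.88) and Cyp51 (0.87) rose most, with SE of 0.14, 0.11 and 0.11 and limma adjusted p of 0.00011, 2e-05 and 2.7e-05. Ebp was lower, at -0.22 ± 0.05 (SE, limma adjusted p = 0.0053), with every 10058F4 array below every M0 array. Fasn, which read 7.92, 7.97 and 7.8, was higher by 0.71 ± 0.11 (SE, limma adjusted p = 0.00019), and Elovl5 by 0.27 ± 0.06 (SE, limma adjusted p = 0.0026). Fads1, which read 8.34, 8.56 and 8.21, was lower, at -0.59 ± 0.15 (SE, limma adjusted p = 0.0072), and Elovl6, which read 4.91, 4.86 and 4.94, by -0.53 ± 0.10 (SE, limma adjusted p = 0.0011). Among the control genes Insig1 (0.88), Insig2 (0.78) and Srebf2 (0.32) were higher. The other probe set of Srebf2 gave -0.06. The replicate block added Tm7sf2, as lower (adjusted p = 0.048; 0.022 to 0.28 over 17 alternatives), and Sc5d (0.034; 0.0023 to 0.18) and Stard4 (0.0021; 0.0021 to 0.21), as higher. Over all genes centring on the tested genes turned 1912 higher and 2613 lower calls into 2828 and 2042 in this comparison.

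**Figure D5:**
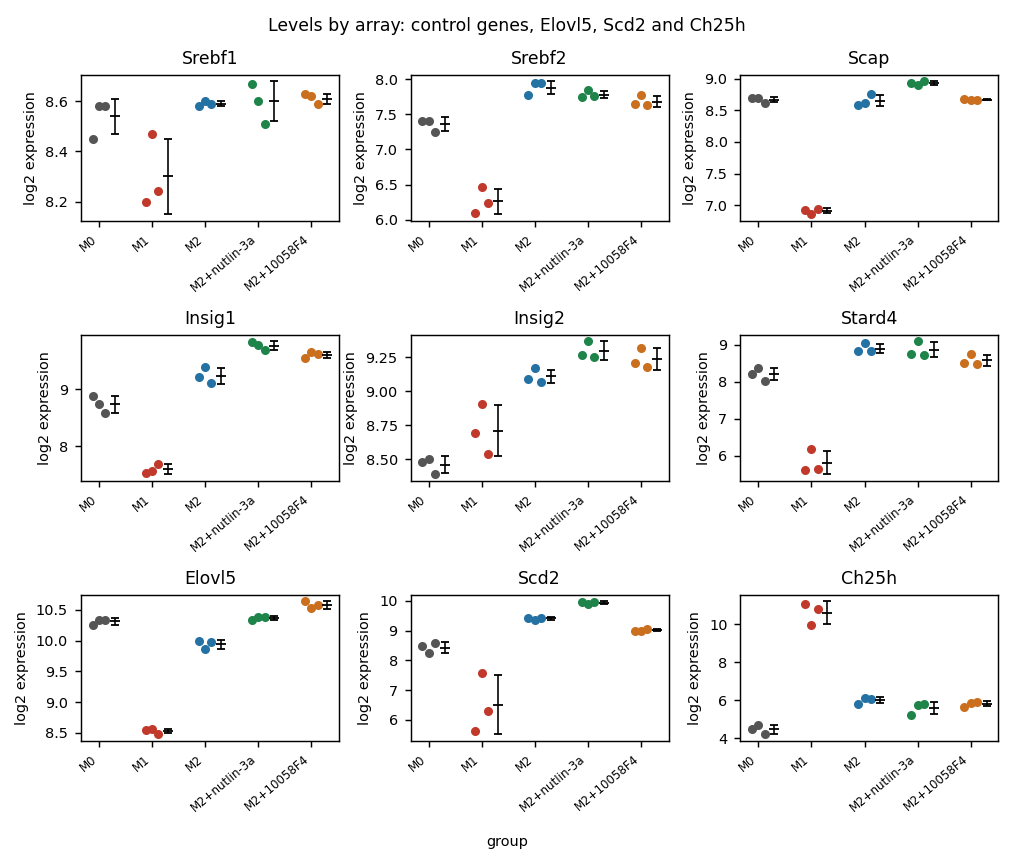
Log2 expression (vertical axes, a different range in each panel) of the 6 control genes, Elovl5, Scd2 and Ch25h by group, with a point per array and the mean ± SD of 3 arrays beside them. Srebf1 stays within 8.20 to 8.67 on all 15 arrays, Scap and Stard4 are low in M1 cells alone, Scd2 spreads from 5.63 to 7.58 in M1 cells, and Ch25h is at least 9.94 in M1 cells and at most 6.12 in the others.

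Over the 5 groups the control genes thus had different ranges. The group means of Srebf1 differed by at most 0.31, those of Insig2 by 0.84, Srebf2 by 1.62, Scap by 2.02, Insig1 by 2.17 and Stard4 by 3.08. The same range was 4.52 for Idi1, the widest of the members, 3.62 for Cyp51, 3.5 for Sqle and 0.26 for Mvk, the narrowest.

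Of 33 members 21 had more than 1 probe set above the limit for low values, and 2 were called in both directions by different probe sets in M1 against M0. For Fdft1 the chosen probe set gave -1.74 and another -1.58, while a further pair, with lower signal, gave 0.26 and 0.43. For Lss the chosen probe set gave -0.37, another -2.17 and the dimmest 0.38. Fdft1 disagreed in the same way in M1 against M2, and no member did in the other 6 comparisons. For Msmo1 a second, dimmer probe set gave -0.27 in M1 and 0.03 in M2 against M0, neither of which was called on that probe set (adjusted p = 0.06 and 0.9). Insig2's other 2 probe sets gave 0.18 and -0.11 in M1 against M0. For Fads1 the chosen probe set gave -2.56 in M1 against M0 and -2.18 in M1 against M2. Its dimmer one gave -0.06 and -0.19. For Scap the chosen probe set gave -1.76 and -1.75 in these comparisons, and its dimmer one 0.09 and -0.04. For Srebf2 the chosen one gave -1.09 and -1.62, and the other -0.48 and -0.63. Hmgcs1, by contrast, fell on all 5 of its probe sets in M1 against M0, by 1.20 to 1.78.

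Of 19 further genes of the pathway fixed as a list, 16 had a probe set and 15 were tested; 3 had none and are not analysed here. In M1 against M0 cells 9 of the 15 were lower and 4 higher, where limma called 39.1% of all tested genes lower and 33.6% higher. The proteases that release SREBP fell, Mbtps1 (site 1) by 1.37 ± 0.07 and Mbtps2 (site 2) by 1.53 ± 0.06 (SE, limma adjusted p = 5.2e-10 and 3.2e-11). Mid1ip1, which activates acetyl-CoA carboxylase, fell by 1.84 ± 0.08 (SE, limma adjusted p = 9.7e-11) and Tmem97, a sterol-responsive membrane protein gene, by 1.48 ± 0.11 (SE, limma adjusted p = 2.9e-08). Ch25h, whose enzyme turns cholesterol into an oxysterol that holds SREBP in the endoplasmic reticulum, moved most. It read 4.5, 4.70 and 4.22 in M0 cells and 11.08, 9.94 and 10.83 in M1 cells, a rise of 6.15 ± 0.24 (SE, limma adjusted p = 1.9e-11), and since its M0 mean of 4.47 is near the limit for low values the size is not exact. Ggps1, the geranylgeranyl diphosphate synthase gene, rose by 0.66 with its chosen probe set, but its value was -0.08 (adjusted p = 0.64) with probe sets specific by suffix.

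In M2 against M0 cells 5 of the 15 rose and 4 fell, against 12.7% and 18.4% of all tested genes. Ch25h read 5.82, 6.12 and 6.09 in M2 cells and rose by 1.54 ± 0.24 (SE, limma adjusted p = 2e-04). Acss2, which makes acetyl-CoA from acetate, read 7.63, 7.32 and 7.25 in M0 cells and 5.78, 6.10 and 6.38 in M2 cells. It fell by 1.31 ± 0.15 (SE, limma adjusted p = 1.5e-05), and Mid1ip1 fell by 1.24 ± 0.08 (SE, limma adjusted p = 8.3e-08). Acss2 was higher in both agent groups than in M2 cells, at 6.84, 6.8 and 6.62 with nutlin-3a (0.67 ± 0.15 SE, limma adjusted p = 0.0085) and at 6.90, 6.86 and 6.89 with 10058F4 (0.80 ± 0.15 SE, limma adjusted p = 0.0017). Every array with an agent was above every M2 array. The part of any solvent in differences shared by both agent groups was not tested. Mid1ip1 was lower with 10058F4 than in M2 cells by -0.44 ± 0.08 (SE, limma adjusted p = 0.0018) and Mbtps2 was higher with both agents, by 0.23 and 0.26.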

How the data were processed

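Total RNA of 15 samples, 3 in each of 5 groups named by the sample titles, was read on 1 single-colour array each. RMA, per the submitters' processing notes, gave the deposited log2 values of each probe set; the sources used here name no version of it, and the base was taken from the values. RMA scales the arrays toward a common distribution, which can hide a shift of most genes; the deposited arrays still differed, with 40th percentiles of 4.34 to 4.39 in M0 and 4.47 to 4.52 in M1 cells.

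The table held 45101 probe sets, 64 of them controls. GEO's platform annotation named 1 gene for 34945, several for 932 and none for 9160, and 34741 gene IDs matched RefSeq's table of GRCm38.p6, used for symbols. A gene was tested if it lay above the array's 40th percentile (4.34 to 4.52) on at least 3 arrays, which took out 4490 genes. Contrasts came from limma (lmFit, eBayes) on all 15 arrays, with 10 residual degrees of freedom and 3.86 from the prior; p-values were adjusted by Benjamini-Hochberg over 13703 genes within each of 8 comparisons. The number of arrays limits the precision.

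The members and lists were chosen with earlier results of these data known. Array values are given for the 3 called members of each arm with the largest differences, for those against their arm's direction and for the control genes; other genes were named after their values were seen. Promoters came from RefSeq's table.

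Same-numbered arrays' deviations from group means correlated with r of 0.23 to 0.47 in the 6 comparisons without M1, above the limit of 0.1 for pairing, and 0.06 to 0.26 in those with M1. The replicate block stands beside results it changes.

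Alternatives were other filters, the mean of a gene's probe sets, only probe sets specific by suffix, a repeated quantile normalization, arrays centred on their median, only the compared arrays, eBayes with trend and robust settings, weights per array, the replicate block and each array left out; centring on the tested genes was added after seeing the data. The test was first tried on simulated data. R 4.3.3, limma 3.58.1, Python 3.11.15, pandas 2.3.3 and matplotlib 3.10.9 were used.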

Additional observations from a re-analysis of the deposited data

How the results depend on the processing

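With 3 arrays a group, small differences can be missed, and genes near the limit for low values have inexact sizes. Of 4440 values of single members under the alternatives, 4218 kept their direction and side of the threshold, 95 gained a call, 126 lost one and 1 reversed, Srebf1 in M1 against M0 (0.09, adjusted p = 0.23, arrays centred on the tested genes); outside the members Ggps1 reversed with specific probe sets, to -0.08 in M1 against M0 and -0.11 in M1 against M2 (adjusted p = 0.64 and 0.55). The causes of the changes below were not tested. The sterol median in M1 against M0 was -0.76 with the mean of probe sets, -1.49 with specific ones, -0.97 with repeated quantile normalization, -0.90 centred on the tested genes and -1.41 with array weights. The fatty acid median was -0.89 with the mean of probe sets, -1.49 with the filter at the 60th percentile, -1.19 with repeated quantile normalization and -1.01 centred on the tested genes. In M1 against M2 the sterol median was -1.39, -2.00, -1.53 and -1.97 with the mean of probe sets, specific ones, that centring and weights, and the fatty acid median -1.43 with the 60th percentile, -0.59 with the mean and -1.06 with that centring. In both comparisons 1 sterol gene, Mvk, was higher after repeated quantile normalization and after that centring. In M2 against M0 the medians with the mean of probe sets were 0.50 (sterol) and 0.06 (fatty acid), and the 60th percentile gave a fatty acid median of 0.25 with 1 gene lower. For nutlin-3a against M2 the fatty acid median was 0.01 (60th percentile) and 0.03 (mean of probe sets), with 3 genes higher under weights and 4 on the compared arrays alone, and 2 sterol genes were higher with the mean of probe sets and 0 with specific ones. For 10058F4 against M2, 1 fatty acid gene was lower after repeated quantile normalization and 2 on the compared arrays. Between the agents, 13 sterol genes were higher under weights; 3 fatty acid genes were higher under weights and on the compared arrays and 1 with the 60th percentile, the mean of probe sets, centring on the array's median or trended and robust eBayes; and 0 were lower without a filter, with specific probe sets, centred on the array's median, on the compared arrays or with the replicate block. Against M0, the sterol median with the mean of probe sets was 0.69 for nutlin-3a and 0.38 for 10058F4; 2 fatty acid genes were lower with nutlin-3a under specific probe sets and weights; with 10058F4, 1 fatty acid gene was lower at the 60th percentile, and 2 sterol genes under weights and the replicate block. Leaving out each array in turn gave a sterol median of -1.44 to -1.05 in M1 against M0 and -2.06 to -1.67 in M1 against M2, each lowest without M1 replicate 2. It gave 1 (without M2 replicate 2) to 3 fatty acid genes higher in M2 against M0, 1 to 2 sterol genes lower (2 without M0 replicate 3) for 10058F4 against M0, 2 to 5 sterol genes lower for 10058F4 against M2, 0 to 1 fatty acid genes lower for nutlin-3a against M0, 0 to 1 sterol genes higher for nutlin-3a against M2, and between the agents 1 to 9 sterol genes higher and 0 fatty acid genes lower. In the comparisons with M1, whose numbers do not pair the arrays by the limit used, the replicate block ended no call of a member in M1 against M0 or M1 against M2.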
